A study of Mus musculus with 6 samples.

Results

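The genes described here mark the muscular cells of the vessel wall: 6 contractile genes of smooth muscle (Acta2, Tagln, Cnn1, Myl9, Tpm2 and Myh11) and 4 genes of pericytes (Rgs5, Cspg4, Kcnj8 and Abcc9). They were taken by gene symbol from the 45038 genes of the deposited table, and each of the 10 symbols had 1 row. The MI group was 3 libraries from infarct tissue taken 3 weeks after ligation of the left anterior descending coronary artery, and the Normal group was 3 libraries from normal left ventricle, labelled as without that surgery. All 6 came from C57BL/6 mice carrying Tie2-Cre and Rosa-LSL-tdTomato, and the labels give an age of 6 to 8 weeks at surgery. Tie2 is active in endothelium and in part of the blood lineage, so tdTomato marks both, and the sort kept tdTomato-positive cells that lacked F4/80, a macrophage surface antigen. Titles number the libraries Ms1535, Ms1537 and Ms1608 in each group, and no label says whether equal numbers come from the same mouse, and p-values here cover only the scatter among these 6 libraries, which may be partly technical.

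Smooth muscle cells contract when myosin slides along actin filaments, and their actin, tropomyosin, calponin, transgelin and myosin chains are made from genes that serum response factor switches on through a DNA element called the CArG box. Pericytes sit on capillaries, share part of this machinery, and are recognised by a regulator of G protein signalling, a surface proteoglycan and a potassium channel that responds to ATP. After infarction, alpha smooth muscle actin is also known from the myofibroblasts of the scar, and it is a common readout when endothelial cells are tested for mesenchymal change.

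Acta2 lies at chr19:34241090-34255590 on the minus strand (GRCm38, GENCODE M21) and Myl9 at chr2:156775420-156781658 on the plus strand. Their RefSeq promoter windows (GRCm38.p6, 250 bases before to 50 after the annotated start) are shown because CArG boxes were found in these 2 of the 8 member windows that matched, and the window of Rgs5, the pericyte gene at chr1:169655501-169695813 on the plus strand, is shown beside them. Capitals mark CC and GG around 6 bases of which at most 1 is G or C, a pattern that reads the same way on both strands. The windows are chr19:34255324-34255623, chr2:156775214-156775513 and chr1:169655251-169655550.
Acta2: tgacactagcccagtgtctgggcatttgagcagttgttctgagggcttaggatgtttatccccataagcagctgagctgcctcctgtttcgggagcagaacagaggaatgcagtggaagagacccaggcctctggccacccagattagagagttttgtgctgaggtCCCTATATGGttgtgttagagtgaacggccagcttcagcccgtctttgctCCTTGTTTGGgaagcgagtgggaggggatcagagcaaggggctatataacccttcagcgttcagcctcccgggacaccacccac
Myl9: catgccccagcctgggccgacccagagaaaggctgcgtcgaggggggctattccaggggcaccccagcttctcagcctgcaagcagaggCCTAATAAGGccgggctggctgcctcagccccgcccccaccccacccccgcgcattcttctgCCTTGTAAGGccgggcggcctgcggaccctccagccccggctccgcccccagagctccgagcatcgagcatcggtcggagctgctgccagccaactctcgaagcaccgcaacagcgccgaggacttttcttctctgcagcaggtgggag
Rgs5: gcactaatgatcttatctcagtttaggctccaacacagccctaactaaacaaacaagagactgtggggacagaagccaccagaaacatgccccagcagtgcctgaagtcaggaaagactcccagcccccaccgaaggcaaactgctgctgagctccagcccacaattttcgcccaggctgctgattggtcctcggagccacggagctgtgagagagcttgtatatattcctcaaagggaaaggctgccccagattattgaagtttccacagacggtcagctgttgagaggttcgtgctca
Acta2 held 2 such boxes, starting at -84 and -34 from the annotated start, each with 1 G or C in the core. Myl9 held 2, at -161 and -99, and the first of them was the strict form with A or T only. The strict form occurred in 1.63% of all 32851 windows and the form with up to 1 G or C in 9.98%. The letters were not found in the windows of Rgs5, Tpm2, Kcnj8, Abcc9, Cnn1 and Cspg4, which says nothing about the factor. Tagln and Myh11, both contractile, had no matching window and were not searched.

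Among other members, Tagln (chr9:45929619-45936058) overlaps Pcsk7 and an antisense RNA on the opposite strand, and Abcc9 (chr6:142587862-142702315) overlaps an antisense RNA. These overlaps are of whole gene spans, and exons were not compared. The strand setting of the counting is not given in the sources used here. Whether values of Tagln and Abcc9 include reads of their partners is thus not known. Kcnj8 (chr6:142564837-142571614) lies next to Abcc9 on the same strand. No window of 100 bases in the longest coding transcript of any member recurred in a transcript of another gene, so exact sharing of whole reads with a paralog was not found.

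The libraries differ in make-up, and Normal Ms1608 stands apart. Kdr, an endothelial VEGF receptor, stood at 30.6, 63.1 and 11.9 FPKM (fragments per kilobase of transcript, scaled to library depth) in the 3 MI libraries, against 73.9, 44.6 and, for Normal Ms1608, 0.486 in the Normal ones. Ptprc, the leukocyte antigen CD45, was at 68.7, 77.9 and 75.9 FPKM in the MI libraries and at 3.13, 4.72 and 174 in the Normal ones. Normal Ms1608 thus had the least Kdr and the most Ptprc of the 6, and each member's comparison is also given without it. The FPKM of low genes fell on steps of whole fragments, which gave 34.0 to 48.0 M fragments for the MI libraries and 34.4 to 43.2 M for the Normal libraries.

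Most of the 10 genes were low in these sorted cells. With at least 1 FPKM in at least 3 libraries as the filter, 6 members were tested (Acta2, Tagln, Myl9, Tpm2, Rgs5 and Kcnj8) and 4 were below it (Cnn1, Myh11, Cspg4 and Abcc9). By group mean and SD (n = 3 each), the order in MI was Tpm2 (16.2 ± 10.3 FPKM), Acta2 (7.45 ± 5.72), Rgs5 (5.96 ± 1.99), Myl9 (2.62 ± 1.06), Kcnj8 (2.52 ± 1.44), Tagln (1.39 ± 0.892) and Cspg4 (0.719 ± 0.987), followed by Myh11, Cnn1 and Abcc9 below 0.3 FPKM in every MI library. In Normal it was Tpm2 (27.8 ± 36.4 FPKM), Rgs5 (12.7 ± 10.8), Myl9 (2.62 ± 2.69), Kcnj8 (1.71 ± 1.40), Acta2 (1.42 ± 1.74), Tagln (1.18 ± 1.04), Abcc9 (0.458 ± 0.415) and Cspg4 (0.107 ± 0.0850). Ranges of neighbours in these orders overlapped, except for Rgs5 above Myl9 in MI. Of the lowest values, 7 of the 60 member values stood at 3 fragments or fewer, the limit that a count of 0 allows for counting error alone.

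**Figure D1:**
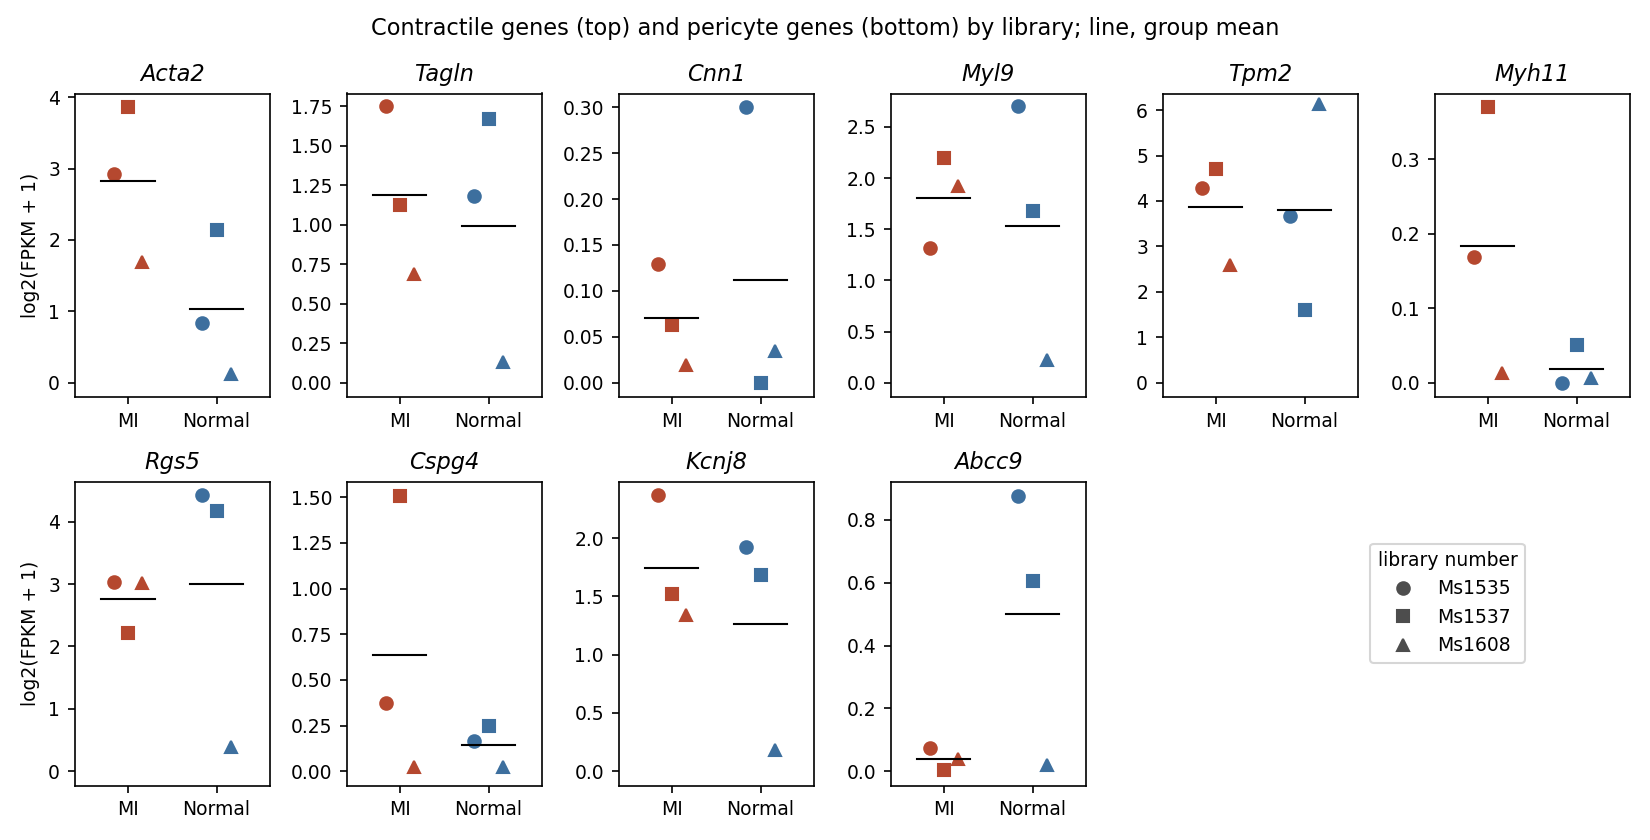
Level of each member in each library, as log2(FPKM + 1), for MI and Normal, with a point per library and a line at the group mean. The 2 groups overlap in all 10 panels, and the Normal Ms1608 triangle is lowest for Acta2, Tagln, Myl9, Rgs5 and Kcnj8 and highest for Tpm2.

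MI was compared with Normal by limma on log2(FPKM + 1) over all 10168 genes past the filter, with Benjamini-Hochberg adjustment and a threshold of 0.05. None of the 6 tested members passed it, against 0.00983% of all tested genes, which is 1 gene, the small nuclear RNA gene Gm24890. At an unadjusted limma p under 0.05, 1 member (Acta2) was higher and 0 were lower, against 16.1% of tested genes higher and 0.207% lower. Acta2 was no longer under that value after any of the 3 scalings, with a pseudocount of 5, with no filter, or without MI Ms1535, MI Ms1537, Normal Ms1535 or Normal Ms1608. The groups of 0 of the 10 members were separate, against 25% of tested genes with all MI libraries above Normal and 0.354% with all below. For the median of all tested genes the log2 difference was 0.78, so a member's difference is to be read against that value. In bulk RNA, fewer cells of a type and less RNA per cell cannot be told apart.

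Acta2, alpha smooth muscle actin, reached 6.57, 13.6 and 2.22 FPKM in the MI libraries (in the order Ms1535, Ms1537, Ms1608, kept throughout) and 0.789, 3.39 and 0.0834 in the Normal ones. MI Ms1535 and Ms1537 were the highest of the 6, and MI Ms1608 lay below Normal Ms1537, so the groups overlapped. The log2 difference was 1.79 (SE 0.77, limma adjusted p = 0.298). It kept its sign in all 14 alternatives, from 0.88 to 2.85, with adjusted p between 0.213 and 0.936. Without Normal Ms1608 it was 1.34 (SE 0.72, limma adjusted p = 0.222).

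Tagln encodes transgelin, an actin-binding protein early in smooth muscle differentiation, and was at 2.36, 1.18 and 0.612 FPKM in the MI libraries and 1.27, 2.17 and 0.0950 FPKM in the Normal libraries. The groups interleaved, with MI Ms1535 highest and Normal Ms1537 next. The log2 difference was 0.19 (SE 0.51, limma adjusted p = 0.867) and turned to -0.24 without Normal Ms1608 (adjusted p = 0.709), and it was negative after each scaling.

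Myl9, the regulatory light chain of smooth muscle myosin, had 1.48, 3.59 and 2.78 FPKM in the MI libraries against 5.51, 2.195 and 0.167 in the Normal ones. The Normal libraries held both the highest and the lowest value. The difference on the log2 scale was 0.28 (SE 0.70, limma adjusted p = 0.862), and -0.38 without Normal Ms1608 (adjusted p = 0.609).

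Tpm2, beta-tropomyosin of the thin filament, had 18.4, 25.2 and 4.98 FPKM in the MI libraries against 11.8, 2.03 and 69.5 in the Normal ones. Normal Ms1608, the library with Kdr near 0 and the most Ptprc, was the highest, and Normal Ms1537 the lowest. The log2 difference was 0.05 (SE 1.12, limma adjusted p = 0.988). Without Normal Ms1608 it was 1.22 (SE 0.80, limma adjusted p = 0.301), and without Normal Ms1537 it was -1.05 (adjusted p = 0.682). Its direction thus turned with the Normal library left out.

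Myh11 is the heavy chain of smooth muscle myosin and a marker of mature smooth muscle. It had 0.124, 0.292 and 0.00893 FPKM in MI, was listed at 0 in Normal Ms1535, and had 0.0355 and 0.00412 FPKM in Normal Ms1537 and Ms1608. These levels correspond to about 38.0, 78.3 and 1.9 fragments in the MI libraries and 7.8 and 1.0 fragments in Normal Ms1537 and Ms1608. Cnn1, calponin, had 0.0941, 0.0445 and 0.0131 FPKM in MI (about 9.9, 4.0 and 1.0 fragments), against 0.231 and 0.0244 FPKM in Normal Ms1535 and Ms1608 (about 22.0 and 2.0 fragments), and was listed at 0 in Normal Ms1537. Both genes stayed under 1 FPKM in all 6 libraries. With no filter, limma gave log2 differences of 0.17 for Myh11 (adjusted p = 0.649) and -0.04 for Cnn1 (adjusted p = 0.825). Without Normal Ms1608 the differences, not tested, were 0.16 for Myh11 and -0.08 for Cnn1, and that of Cnn1 was 0.05 without Normal Ms1535. Without MI Ms1537, that of Myh11 was 0.07.

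**Figure D2:**
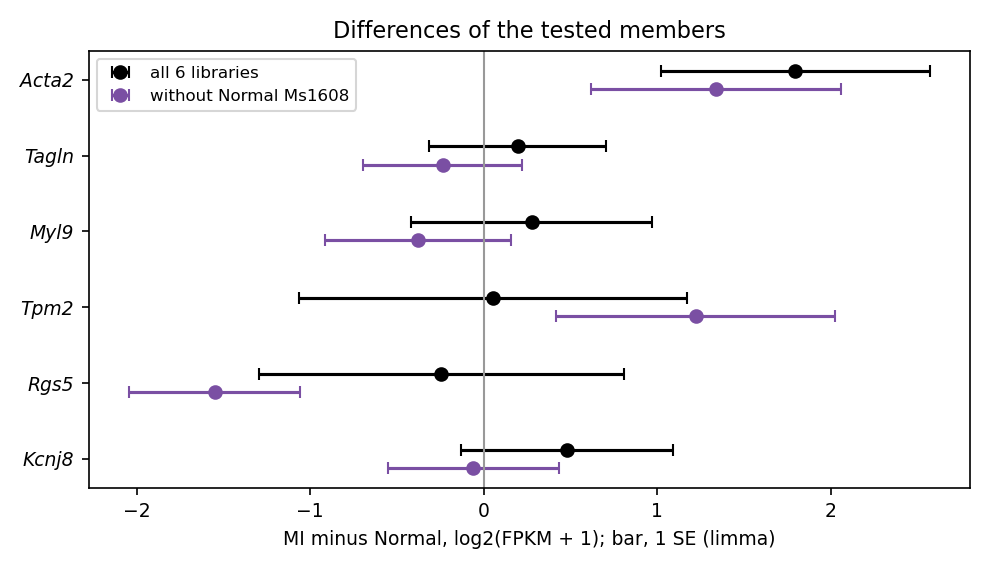
Difference of MI from Normal, in log2(FPKM + 1), for the 6 tested members, with 1 SE from limma, over all 6 libraries and without Normal Ms1608. Acta2 stays right of 0 at 1.79 and 1.34, Rgs5 moves to -1.55 and Tpm2 to 1.22 once Normal Ms1608 is left out.

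Among the pericyte genes, Rgs5, a regulator of G protein signalling and the most abundant of them, had 7.14, 3.67 and 7.09 FPKM in MI. The Normal libraries had 20.6, 17.1 and 0.306 FPKM, the last in Ms1608. Apart from Normal Ms1608, the groups did not overlap, and the MI mean of 5.96 FPKM stood against 18.8 FPKM over these 2 Normal libraries. Over all 6 libraries the log2 difference was -0.24 (SE 1.05, limma adjusted p = 0.920). Without Normal Ms1608 it was -1.55 (SE 0.49, unadjusted p = 0.0124, limma adjusted p = 0.0900), which missed the threshold. The difference was positive without Normal Ms1535 (0.47), Normal Ms1537 (0.35) or MI Ms1537 (0.0223), so its direction depended on the library left out. Of all tested genes, 4.51% passed the threshold without Normal Ms1608, 4.45% higher and 0.0688% lower in MI. In that same comparison, at an unadjusted limma p under 0.05, Rgs5 was the 1 member lower, against 0.738% of tested genes, and 0 were higher, against 30.8%. Rgs5 stood above 87.7, 82.3 and 90.4% of the listed genes in the MI libraries, and above 96.7, 96.6 and 80.2% in the Normal libraries, a rank that no common scaling changes.

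Abcc9 encodes the sulphonylurea receptor of the ATP-sensitive potassium channel, and Kcnj8 encodes the pore of that channel. Abcc9 had 0.0515, 0.00336 and 0.0281 FPKM in MI, about 18.1, 1.0 and 7.0 fragments, against 0.837, 0.522 and 0.0148 FPKM in Normal, about 264.6, 131.8 and 4.0 fragments. As for Rgs5, the MI libraries lay below Normal Ms1535 and Ms1537. Normal Ms1608 lay within the MI range for Abcc9 and below it for Rgs5. With no filter, the difference in log2(FPKM + 1) was -0.46 (SE 0.22, limma adjusted p = 0.649). It was -0.70 without Normal Ms1608 and -0.27 without Normal Ms1535. Without Normal Ms1608, 2 of the 10 members, Rgs5 and Abcc9, had all MI libraries below Normal, against 1.75% of tested genes, and 0 had all above, against 52.6%. Abcc9 was not among the genes tested there, so the count that matches these shares is 1 of the 6 tested members, Rgs5.

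Kcnj8 had 4.17, 1.87 and 1.53 FPKM in the MI libraries against 2.80, 2.21 and 0.133 in the Normal ones, so that the ranges overlapped whether or not Normal Ms1608 was counted. The difference on the log2 scale was 0.48 (SE 0.61, limma adjusted p = 0.705), and -0.06 without Normal Ms1608 (adjusted p = 0.933). Cspg4, the NG2 proteoglycan, had 0.295, 1.85 and 0.0146 FPKM in the MI libraries against 0.120, 0.186 and 0.0169 in the Normal ones. MI Ms1537, the only library with Cspg4 above 1 FPKM, also had the highest Acta2, Myh11 and Tpm2 among MI libraries. With no filter, the log2 difference of Cspg4 was 0.49 (SE 0.40, limma adjusted p = 0.649). It was 0.43 without Normal Ms1608, 0.80 without MI Ms1608 and 0.0526 without MI Ms1537, so that its size rested on MI Ms1537.

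Averaged per library on the log2(FPKM + 1) scale, the 6 contractile genes stood at 1.76, 2.06 and 1.15 in MI and at 1.45, 1.19 and 1.11 in Normal. The 4 pericyte genes stood at 1.46, 1.31 and 1.10 in MI and at 1.85, 1.68 and 0.15 in Normal. The contractile mean minus the pericyte mean was 0.30, 0.74 and 0.05 in the MI libraries, -0.40 and -0.49 in Normal Ms1535 and Ms1537, and 0.96 in Normal Ms1608. All MI libraries thus had the contractile mean above the pericyte mean, and Normal Ms1535 and Ms1537 had it below. The group means of this difference were 0.36 ± 0.35 in MI and 0.02 ± 0.81 in Normal (SD, n = 3 each). With Tpm2 left out, a choice made after its value was seen, the difference was -0.20, 0.21 and -0.24 in MI and -0.85, -0.57 and -0.05 in Normal. These means describe genes of unequal level, and no test was made of them.

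**Figure D3:**
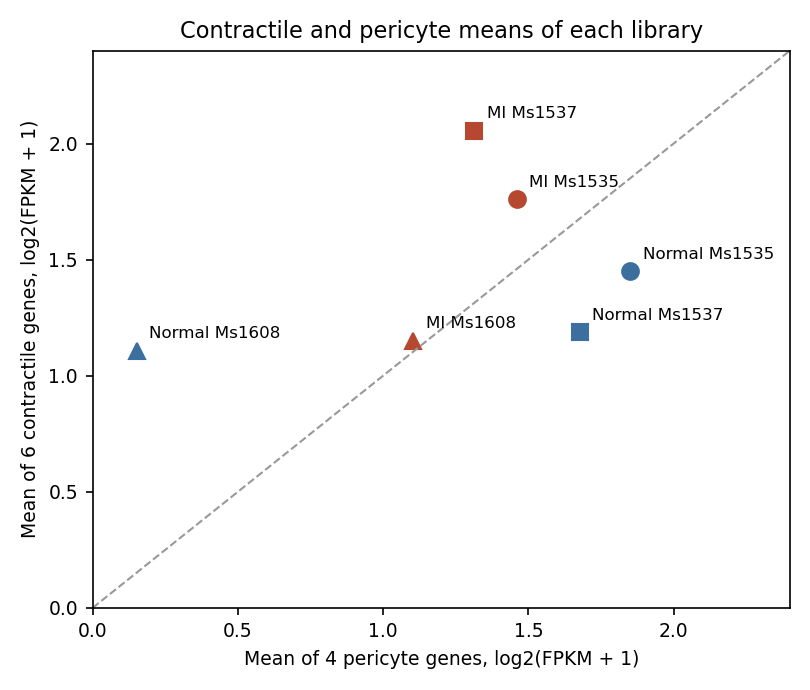
Mean log2(FPKM + 1) of the 6 contractile genes against that of the 4 pericyte genes, with a point per library and a dashed line of equality. MI libraries lie above the line by 0.05 to 0.74, Normal Ms1535 and Ms1537 below it, and Normal Ms1608 far left at a pericyte mean of 0.15.

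Ratios of 2 genes within a library do not change when the library is scaled by a common factor, though quantile scaling can change them. Over the 8 ratios of a tested contractile to a tested pericyte gene, 1 separated the groups. Acta2 over Rgs5 was 0.920, 3.70 and 0.314 in MI and 0.0383, 0.199 and 0.273 in Normal. All MI ratios were above all Normal ratios, as for 14.9% of tested genes set over Rgs5, with 0.0393% the other way. The smallest of the MI ratios and the largest of the Normal ratios had overlapping 95% intervals (exact, counting error only), at 0.261 to 0.375 for MI Ms1608 and 0.0951 to 0.641 for Normal Ms1608. With 3 against 3, an exact two-sided permutation test cannot go below p = 0.1.

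Further ratios of members were computed after the values were seen. Acta2 over Myl9 was 4.43, 3.78 and 0.800 in MI and 0.143, 1.54 and 0.498 in Normal, so the groups overlapped. Acta2 over Tagln, both contractile, was 2.78, 11.5 and 3.63 in MI and 0.620, 1.56 and 0.878 in Normal. This ratio was higher in each MI library than in any Normal one, as for 10.7% of tested genes set over Tagln, with 0.236% the other way. The 95% counting interval of Normal Ms1608, 0.223 to 3.64 from 6 and 5 fragments, overlapped those of MI Ms1535, 2.33 to 3.33, and MI Ms1608, 2.44 to 5.58. Kcnj8 over Abcc9, the pore over the receptor of the channel, was 81.1 in MI Ms1535 and 54.6 in MI Ms1608, against 3.35, 4.23 and 8.97 in the Normal libraries. In MI Ms1537 Abcc9 rested on 1 fragment, and the 95% interval of the ratio ran upward from 98.5. In Normal Ms1608 the interval was 2.72 to 38.2, which overlapped that of MI Ms1608, 25.7 to 139. Of tested genes set over Abcc9, 42.3% had all MI ratios above all Normal ratios.

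**Figure D4:**
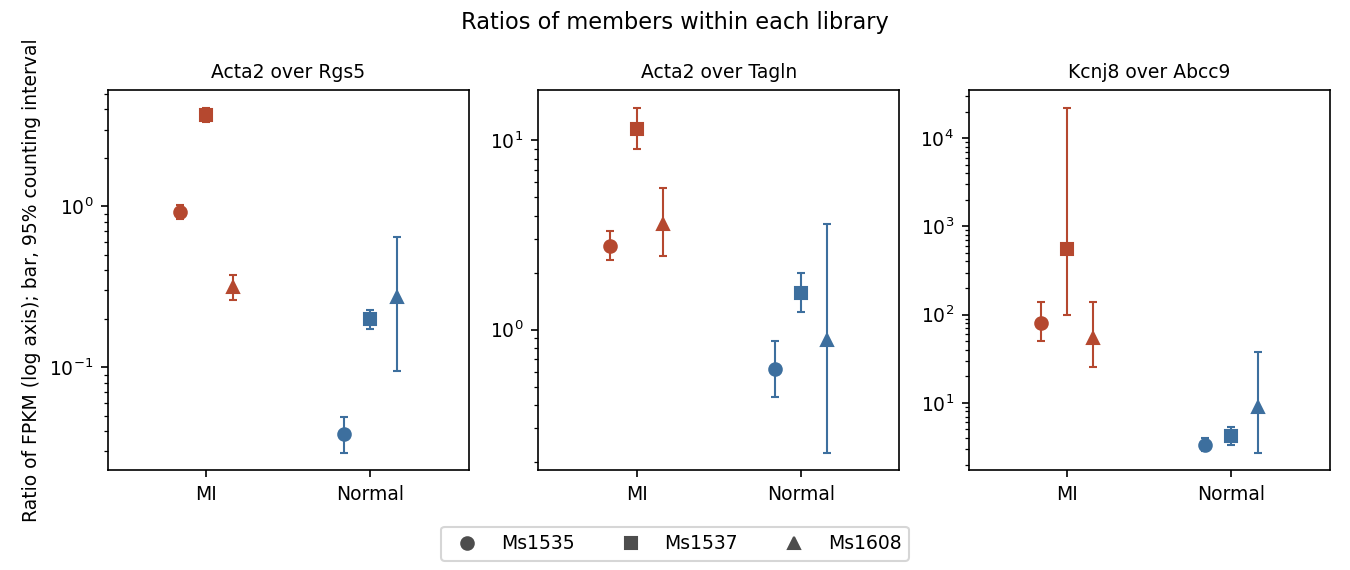
Ratios of FPKM within each library on log axes, for those computed pairs of members that separated the groups. They are Acta2 over Rgs5, Acta2 over Tagln and Kcnj8 over Abcc9, with 95% counting intervals. MI points lie above Normal points in each panel, and the wide bars of Normal Ms1608 and of Kcnj8 over Abcc9 in MI Ms1537 rest on few fragments.

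Each contractile gene has a paralog used in most cells, and the share of the muscle form depended on the paralog it was set against. Acta2 was 0.309, 0.735 and 0.0994% of Actb, the cytoplasmic beta-actin, in MI and 0.0848, 0.578 and 0.00244% in Normal. Against Actg1, the cytoplasmic gamma-actin, Acta2 was 10.6, 26.5 and 5.80% in MI and 2.92, 23.7 and 0.169% in Normal. Tagln was 1.45, 0.856 and 0.563% of Tagln2 in MI and 1.25, 5.70 and 0.0903% in Normal. Myl9 was 0.490, 0.714 and 1.70% of Myl12a, the non-muscle light chain, in MI and 2.16, 1.03 and 0.0855% in Normal. Tpm2 was 14.3, 16.4 and 5.99% of Tpm4 in MI and 10.9, 3.02 and 158% in Normal. Against Tpm1, which heart muscle also uses, Tpm2 was 40.3, 51.0 and 4.55% in MI and 16.7, 4.93 and 4894% in Normal. Only in Normal Ms1608 did a muscle form exceed the paralog plotted for it. Groups overlapped in all of these ratios. Among 12 tested genes of the non-muscle cytoskeleton, 0 passed the threshold and 1 was higher at an unadjusted limma p under 0.05, against 16.1% of all tested genes. It was Myh10, a non-muscle myosin heavy chain (by limma, a log2 difference of 2.14 with SE 0.93 and adjusted p = 0.299). Tagln2, Cnn3 and Actg1 had limma adjusted p-values of 0.504, 0.508 and 0.521. Their list's median difference was 0.80, beside 0.78 for all tested genes.

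**Figure D5:**
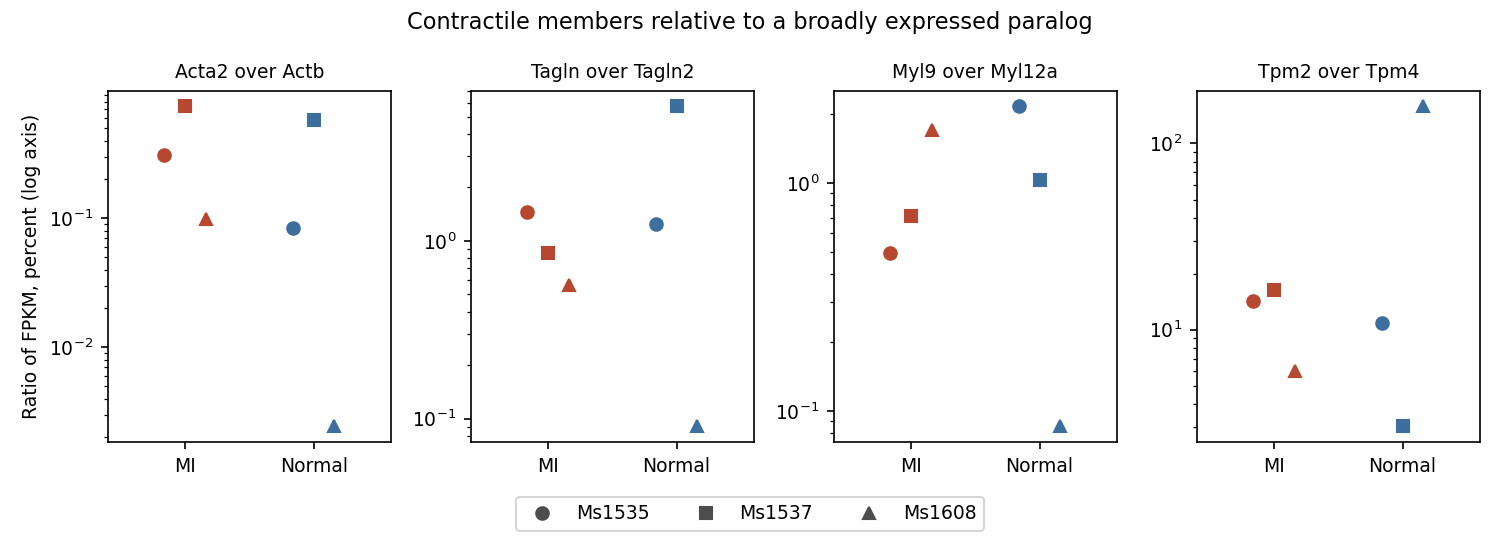
FPKM of Acta2, Tagln, Myl9 and Tpm2 as a percentage of Actb, Tagln2, Myl12a and Tpm4 in each library, on log axes. MI and Normal overlap in each panel, and Normal Ms1608 is lowest for the first 3 pairs and highest, at 158%, for Tpm2.

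Other genes of the same cells were read from lists. Of 24 further smooth muscle contractile genes, 15 were tested and 0 passed the threshold in either direction. At an unadjusted limma p under 0.05 there were 0, against 16.1% of all tested genes higher and 0.207% lower. Their median difference was 0.76, beside 0.78 for all tested genes. Pdlim7, a PDZ and LIM scaffold on actin, had 3.16, 4.03 and 2.79 FPKM in the MI libraries against 2.26, 0.850 and 0.0496 in the Normal ones, with no overlap (by limma, a log2 difference of 1.22 with SE 0.55 and adjusted p = 0.307). It was the 1 of these 15 with all MI libraries above Normal, against 25% of all tested genes. Tpm1, the alpha-tropomyosin shared with heart muscle, Aoc3, an amine oxidase of vascular smooth muscle, and Ppp1r14a, an inhibitor of myosin phosphatase, overlapped between groups. They differed by 1.72, 0.98 and 0.80 log2 units, and limma gave them adjusted p = 0.448, 0.413 and 0.452. The 7 genes under 1 FPKM in every library included Actg2, the enteric smooth muscle actin, and Lmod1, a filament nucleator of smooth muscle, both picked as examples afterwards. Des, desmin, had 2.36, 0.409 and 13.3 FPKM in the MI libraries against 4.18, 5.59 and 0.514 in the Normal ones. Tnnt2, cardiac troponin T, was also highest in MI Ms1608, at 14.01, 39.4 and 100.2 FPKM in the MI libraries against 73.2, 38.0 and 0.757 in the Normal ones, and its part in the Des values was not tested.

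Of the regulators of smooth muscle genes, 17 of 19 names were in the table, where Mrtfa and Mrtfb stand under the older names Mkl1 and Mkl2. Myocd, myocardin, the coactivator that marks committed smooth muscle, was listed at 0 in MI Ms1535 and did not exceed 0.0686 FPKM in any library. Srf, serum response factor, had 11.9, 10.2 and 9.54 FPKM in the MI libraries against 5.36, 4.33 and 7.17 in the Normal ones, without overlap, and is named after its values were seen (by limma, a log2 difference of 0.82 with SE 0.64 and adjusted p = 0.513). Mkl1, a coactivator of Srf that responds to actin, had 4.54, 3.08 and 11.2 FPKM in the MI libraries against 2.57, 1.61 and 3.47 in the Normal ones (adjusted p = 0.493). Of the 10 tested, with a median difference of 0.79, 0 passed the threshold, and Prrx1, a mesenchymal homeobox factor, and Rbpms2, an RNA-binding protein of smooth muscle, were higher at an unadjusted limma p under 0.05, with log2 differences of 2.002 (adjusted p = 0.247) and 1.65 (adjusted p = 0.2996). Both had every MI library above every Normal library, as had Srf, which makes 3 of the 10 tested, against 25% of all tested genes. At that unadjusted limma p, 16.1% of all tested genes were higher in MI. Tcf21, a factor of epicardial and fibroblast lineages, differed by 1.51 (limma adjusted p = 0.362).

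The list of other pericyte genes had 26 of 28 names in the table, with Gucy1a1 and Gucy1b1 under older names, and 10 tested, with a median difference of 0.80. None passed the limma threshold and 4 were higher at an unadjusted p under 0.05, namely Postn, Cd248, Aspn and Steap4, beside 16.1% of all tested genes. Postn, Cd248 and Aspn are also made by fibroblasts, so they do not speak for pericytes alone. Postn, periostin, differed by 4.54, Aspn, asporin, by 2.85 and Steap4, a metalloreductase, by 2.09 log2 units (limma adjusted p = 0.245, 0.252 and 0.280). Cd248, endosialin, had 24.5, 18.5 and 11.8 FPKM in the MI libraries against 4.65, 4.68 and 0.224 in the Normal ones (by limma, a log2 difference of 2.44 with SE 0.80 and adjusted p = 0.2504). Pdgfrb, the receptor that recruits pericytes, had 4.10, 10.6 and 0.975 FPKM in the MI libraries against 0.854, 0.361 and 0.0407 in the Normal ones, without overlap, and was below the filter. Higd1b, a mitochondrial protein used as a pericyte marker, was listed at 0 in MI Ms1535 and had 0.0816 and 0.350 FPKM in the other MI libraries, against 3.70, 1.68 and a listed 0 in the Normal libraries. It is named after its values were seen. Notch3, a receptor of mural cells, stayed between 0.00676 and 0.218 FPKM.

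Markers of other cells moved with the groups and libraries. Summed over 14 fibroblast markers, levels were 1208 to 6295 FPKM in MI and 199.9 to 1123 FPKM in Normal, with MI Ms1608 lowest among MI as it was for Acta2. Fap, the defining protease of activated fibroblasts, was listed at 0 in Normal Ms1608, and is named after its values were seen. Pdgfra, a defining fibroblast marker, was at 5.61, 14.2 and 2.43 FPKM in the MI libraries and 1.37, 1.14 and 0.0375 in the Normal ones, in the same order of MI libraries as Acta2. Endothelial Kdr and the sum of endothelial markers had that order too. So had the median-ratio scaling factors of the MI libraries, at 1.63, 1.87 and 1.18. What set this order was not tested. Summed over 16 endothelial markers, levels were 296 to 1180 FPKM in MI and 41.7 to 1360 FPKM in Normal, with Normal Ms1608 lowest as for Rgs5. That library was also lowest for the fibroblast, cardiomyocyte and platelet sums and for Acta2, Tagln, Myl9 and Kcnj8. Sums over 9 leukocyte markers were 2262 to 2522 FPKM in MI and 299.5 to 4084 FPKM in Normal, over 12 macrophage and monocyte markers 998.8 to 2479 and 173.8 to 3317 FPKM, over 16 cardiomyocyte markers 202 to 1280 and 11.9 to 980 FPKM, over 12 platelet markers 50.4 to 84.5 and 4.01 to 42.5 FPKM, and over 6 Schwann and neural markers 12.4 to 15.2 and 0.744 to 6.97 FPKM. Among defining markers, Adgre1, the F4/80 gene, was at 0.282, 1.70 and 7.21 FPKM in the MI libraries and 0.128, 0.247 and 0.00904 in the Normal ones. Myl2, the ventricular myosin light chain and an abundant cardiomyocyte marker, was at 157.6, 92.3 and 628.7 FPKM in the MI libraries and 502.1, 312.1 and 5.53 in the Normal ones. Without Normal Ms1608, the comparison in which Rgs5 and Abcc9 lay below Normal, all 9 leukocyte markers were called higher in MI by limma, with a median log2 difference of 3.04. The library left out had the most Ptprc, itself among these markers. With all 6 libraries, 0 of the 9 were called and their median was 1.62. Without Normal Ms1608, which had the least Kdr, the median was -0.74 over the 16 tested endothelial markers and 2.17 over the 13 tested fibroblast markers. It was -1.06 over the 8 tested cardiomyocyte markers, and 0 were called in each list. With all 6 libraries these medians were 0.65, 3.13 and 0.66, again with 0 called in each, so the endothelial and cardiomyocyte signs turned with that library. The part of these cells in the member values was not tested.

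Members did not vary as a block. Pearson's r between members was taken on log2(FPKM + 1) over the 6 libraries, which differ in depth and cell make-up. It ran from -0.55 to 0.89 among contractile genes (15 pairs, median 0.22) and from -0.29 to 0.79 among pericyte genes (6 pairs, median 0.28). The closest pairs were Myh11 and Cspg4 (0.96), Tagln and Kcnj8 (0.91) and Acta2 and Myh11 (0.89), and the most opposed were Tpm2 and Rgs5 (-0.81). Among 8807 other protein-coding genes, the 5 most like the contractile mean were Rpl28, Nek8, Plcd1, Abhd8 and Zak (r = 0.98 to 0.99), and the 5 most like the pericyte mean were Arhgap18, Cenpb, Hey1, Cox6c and Zfp945 (r = 0.99). With 6 libraries, 315 genes reached r of 0.9 with the contractile mean and 283 with the pericyte mean, so these 5 are among many.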

How the data were processed

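RNA from sorted tdTomato-positive, F4/80-negative cells was amplified by in vitro transcription before sequencing, per the labels' protocols. The authors deposited FPKM values with 1 column for each library. STAR 2.4.2a, Cufflinks 2.2.1 and mm10 are named in the submitters' processing notes. Annotation release, strand setting and handling of multi-mapping reads are not given in the sources used here.

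The members, lists and settings were chosen with earlier results of these data known. The 10168 genes that reached 1 FPKM in 3 or more of 6 libraries were tested on log2(FPKM + 1) with limma 3.58.1 (R 4.3.3; trended prior variance), group as the only term, Benjamini-Hochberg adjustment over all tested genes. This scale understates changes of low genes. The fit was tested on simulated data. Library depth and fragment numbers were read from steps in low FPKM values of genes with 1 transcript over 1000 bases, of which 92.6 to 93.8% lay within 0.1 of a whole number after the step was fitted. The labels' protocol gives about 10 "megabyte reads" per sample, which was not reconciled with this. Fragment numbers use the longest coding transcript and are approximate. Gene identifiers were matched to GENCODE M21 (98.6%). Named genes were all members, the 4 tested genes of lowest unadjusted p in each companion list with Pdgfrb, Myocd, Des and Notch3, the 2 most abundant genes and defining markers of each list of other cells (values given where a result touches them), and the 5 nearest patterns to each mean. Alternatives were other pseudocounts, filters, scalings, a replicate block, no trend, and leaving out each library.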

Additional observations from a re-analysis of the deposited data

How the results depend on the processing

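No member was called under any of the 15 other settings, where the lowest limma adjusted p of a member was 0.0900, for Rgs5 without Normal Ms1608. The number of genes called was 1 as reported and 1 to 459 when 1 library was left out, 2 without MI Ms1537 and 459 without Normal Ms1608. With libraries scaled by median ratio, by upper quartile or by quantiles, the differences turned negative for Tagln (-0.36, -0.33 and -0.52), Myl9 (-0.40, -0.34 and -0.72), Tpm2 (-0.93, -0.59 and -0.50) and Kcnj8 (-0.18, -0.12 and -0.44), and the contractile mean difference, 0.41 as reported, was -0.11, -0.0214 and -0.12. These scalings put the median difference of all tested genes at -0.03, 0.20 and 0.04, against 0.78 unscaled. A pseudocount of 0.1 turned Rgs5 to 0.15 and moved the contractile mean to 0.86, and a pseudocount of 5 turned Tpm2 to -0.11. Leaving out 1 library at a time gave ranges of -0.24 to 0.53 for Tagln, -0.38 to 0.86 for Myl9, -1.05 to 1.22 for Tpm2, -1.55 to 0.47 for Rgs5 and -0.0603 to 0.81 for Kcnj8. The ranges were 0.21 to 0.66 for the contractile mean, -0.47 to 0.38 for the pericyte mean and 0.08 to 0.81 for their difference. Acta2 kept its direction under each alternative that gave it a value. The cause of these changes was not tested.

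Libraries with the same number had deviations from their group means that correlated at -0.05, 0.10 and 0.09. Those with different numbers ran from -0.115 to 0.104. With 3 libraries in each group this check cannot exclude pairing, and the numbers were not taken as pairs. With the number as a replicate block, the count of called genes was 1 and Acta2 had an adjusted p of 0.213 by limma. Its SE was then 0.63 with an unadjusted limma p of 0.0161, against 0.77 and 0.0429 without the block. No mean of at least 5 FPKM was reached by Acta2, Tagln, Myl9 or Kcnj8, so that filter gave them no value. Depth limits the lowest values, since 7 of the 60 member values rest on 3 fragments or fewer.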
